A study of Homo sapiens with 9 samples.

Results

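Described here are the genes of IL-10, a cytokine that damps macrophage activation, and of the receptors and ligands through which macrophages receive IL-10, IL-4, IL-13, TGF-beta and IFN-gamma. The 10 genes were taken by symbol and were IL10, IL10RA, IL10RB, IL4R, IL13RA1, TGFB1, TGFBR1, TGFBR2, IFNGR1 and IFNGR2. Of these, 9 were found among the 34643 rows of the expression table, and 8 were high enough to be tested. IL10 was not analysed here, by symbol or by ENSG00000136634, so that the cytokine's own transcript has no value below. IL10RB stayed under an expression of 1 FPKM in all 9 libraries.

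RNA was measured in the human line THP-1, derived from a monocytic leukaemia, which turns macrophage-like under the phorbol ester PMA. All cells received PMA at 500 nM for 4 h followed by 24 h of rest. The 3 groups of 3 libraries were a control with no further agent (replicates 1 to 3), LPS at 1 µg/mL (replicates 4 to 6), a component of bacterial outer membranes that triggers inflammatory activation, and LPS at 1 µg/mL with PD at 10 µM (replicates 7 to 9). The series title gives PD as panaxadiol, a plant triterpenoid. No group received PD alone, so its effect was measured only on top of LPS, and neither exposure time nor vehicle is stated in the sources used here. All 9 libraries came from 1 cell line, and nothing in the labels says that replicates were separate cultures, so every p-value below reflects only how far libraries scatter, which may be technical.

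IL-10 binds a receptor of the ligand-binding chain IL10RA and the accessory chain IL10RB and signals through JAK1, TYK2 and STAT3. IL4R pairs with IL2RG or with IL13RA1 and signals through STAT6, which drives an alternative macrophage state. TGF-beta binds TGFBR2, which activates the kinase TGFBR1 and through it the SMAD proteins, whereas IFN-gamma binds IFNGR1, joined by the signalling chain IFNGR2, a route that primes macrophages for inflammation.

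The promoters of 4 receptor genes are shown because their transcripts behaved differently: IL10RA had the largest rise with LPS, IFNGR2 the largest fall with PD, and IL4R rose with LPS while IL13RA1, its partner, did not. Each holds 250 bases before and 50 after a transcription start annotated by RefSeq on GRCh38.p14, on the plus strand, at chr11:117989695-117989994, chr21:33403163-33403462, chr16:27313724-27314023 and chrX:118727356-118727655. Capitals mark matches to TGANTCA (AP-1) in IL10RA and to the NF-kB decamer in IFNGR2 and IL4R; IL13RA1 held no match.
IL10RA: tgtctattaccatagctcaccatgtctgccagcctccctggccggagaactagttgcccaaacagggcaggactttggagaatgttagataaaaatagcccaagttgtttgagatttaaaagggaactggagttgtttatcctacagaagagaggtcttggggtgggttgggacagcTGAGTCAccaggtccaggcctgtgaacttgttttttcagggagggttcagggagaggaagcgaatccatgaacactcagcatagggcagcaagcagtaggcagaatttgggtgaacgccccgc
IFNGR2: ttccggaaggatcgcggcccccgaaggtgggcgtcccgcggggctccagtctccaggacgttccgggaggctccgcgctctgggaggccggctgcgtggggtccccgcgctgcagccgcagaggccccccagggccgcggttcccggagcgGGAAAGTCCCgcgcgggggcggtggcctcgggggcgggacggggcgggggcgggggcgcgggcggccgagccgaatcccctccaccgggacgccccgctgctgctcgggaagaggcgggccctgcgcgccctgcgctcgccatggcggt
IL4R: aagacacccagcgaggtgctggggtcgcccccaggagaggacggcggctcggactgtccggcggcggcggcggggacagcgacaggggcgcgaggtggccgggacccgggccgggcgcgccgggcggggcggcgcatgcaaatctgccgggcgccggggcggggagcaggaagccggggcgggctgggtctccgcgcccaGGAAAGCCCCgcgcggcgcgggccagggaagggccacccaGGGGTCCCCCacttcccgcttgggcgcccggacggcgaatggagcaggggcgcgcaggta
IL13RA1: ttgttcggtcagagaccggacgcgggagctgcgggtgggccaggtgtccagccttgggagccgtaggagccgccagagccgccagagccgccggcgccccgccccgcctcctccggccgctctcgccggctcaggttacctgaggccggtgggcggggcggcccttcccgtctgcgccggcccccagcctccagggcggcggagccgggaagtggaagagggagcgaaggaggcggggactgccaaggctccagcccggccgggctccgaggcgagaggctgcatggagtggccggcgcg

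Promoter entries were present for all 10 genes, 21 in total because several genes have more than 1 start. Both strands were searched for TTCNNNGAA (STAT), TGANTCA (AP-1), TGACGTCA (CRE), GAAANNGAA (interferon-response core) and the NF-kB decamer, and no matches to different motifs overlapped in the 4 promoters shown. The match in IL10RA began 73 bases before the start used, and that in IFNGR2 began 99 bases before its start. Those in IL4R began 50 and 10 bases before its start. The windows of IL10RA, IFNGR2 and IL4R lie wholly inside the genes as annotated by GENCODE, which begin at 117986348, 33402896 and 27313668. Bases before those gene starts were not searched. The NF-kB decamer was found in 6 of the 21 entries, from 4 genes (IFNGR1, IFNGR2, IL4R and TGFBR1), and in 5.91% of the 35116 promoters of the table. The AP-1 motif was found in 3 entries, those of IL10, IL10RA and TGFBR2, against 7.71% of all promoters. The STAT motif was in 1 entry, that of IL10RB, against 7.66%, and neither the CRE (1.85% of all promoters) nor the interferon-response core (8.11%) was in any. The promoters shown differ in base composition, with a GC content of 50.3% in IL10RA, 80.0% in IFNGR2, 79.3% in IL4R and 76.3% in IL13RA1. A match is a run of letters, and binding was not measured.

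Levels are given as FPKM, fragments scaled to exon length and to the fragment total of the library, which allows genes to be compared per length. Depth was 15641358 to 17875224 fragments per library. With LPS 7 of the 8 tested genes were higher than in control, and with PD added 7 of the 8 were lower than with LPS alone, while IL13RA1 did not rise with LPS and was higher with PD. All 8 were still higher with LPS and PD than in control. The plot of expression in each library shows these patterns for all 9 genes with a row.

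**Figure D1:**
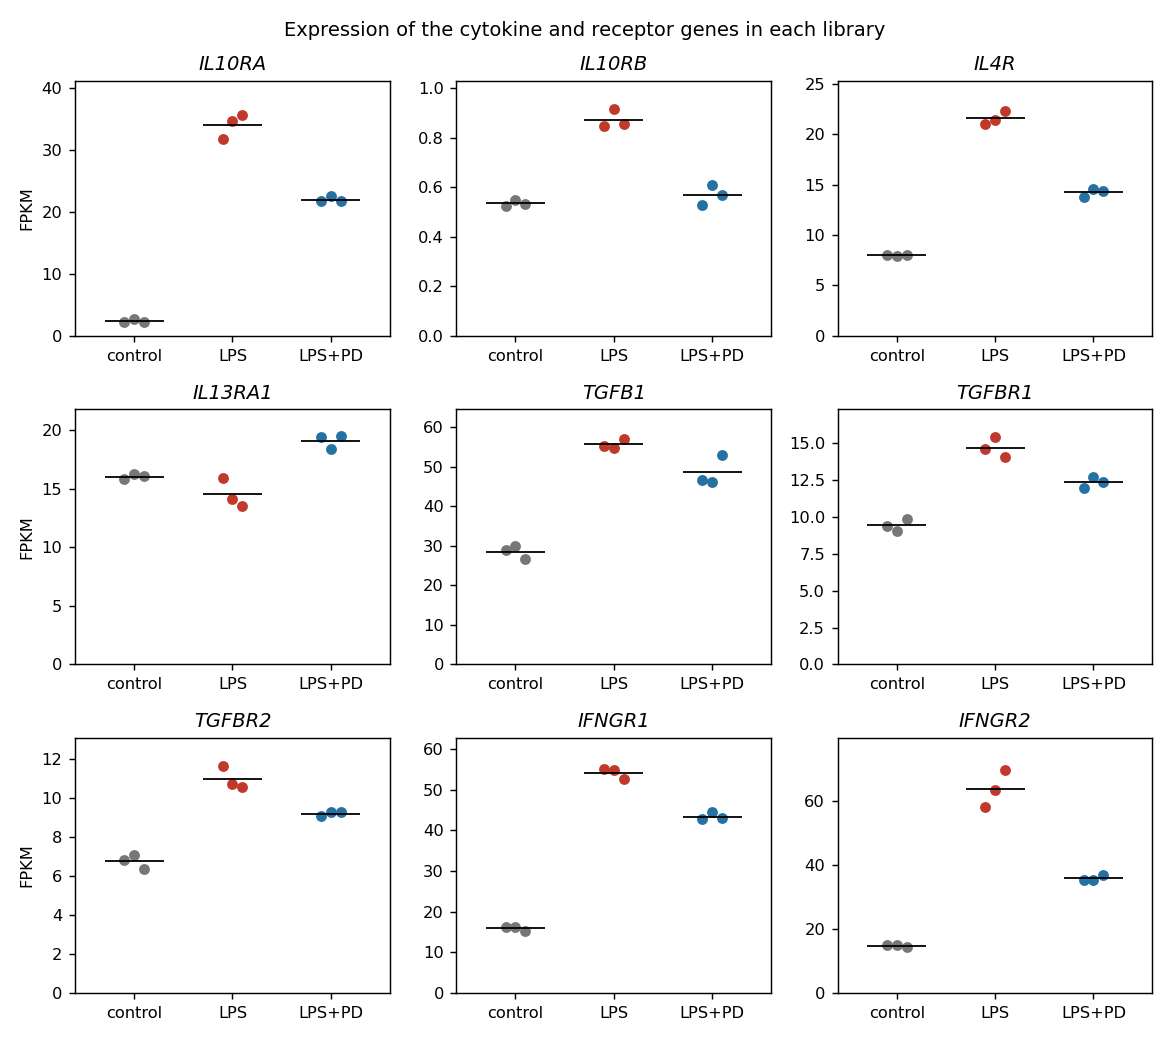
Expression in FPKM (vertical axes, each from 0) of the 9 genes in control, LPS and LPS+PD libraries; points are libraries and lines the means of 3. In 7 of the genes that were tested, LPS libraries lie highest and LPS+PD libraries between them and control; IL13RA1 is highest with LPS and PD, and IL10RB stays under 1 FPKM throughout.

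Genes were called at an adjusted p below 0.05, from limma on log2(FPKM + 1) with Benjamini-Hochberg adjustment over 13692 genes. The receptor and ligand genes were chosen with earlier results of these data known. Their counts beside the shares of all genes are therefore descriptive. For LPS against control, 7 of the 8 were called higher and 1, IL13RA1, lower, where 26.4% of all tested genes were called higher and 39.7% lower. Control and LPS libraries did not overlap for 7 of the 8, all higher, against 28.0% of all genes apart and higher and 41.8% apart and lower. For LPS with PD against LPS, 1 of the 8 was called higher and 7 lower, where 23.8% of all tested genes were called higher and 13.0% lower. The libraries did not overlap for any of the 8, again 1 higher and 7 lower, against 32.8% and 17.6% of all genes. For LPS with PD against control all 8 were called higher, against 26.0% of all genes called higher and 28.7% lower, and all 8 were apart and higher, against 29.0% apart and higher and 32.6% apart and lower. The median difference of the 8 on the log2(FPKM + 1) scale was 1.14 for LPS against control, -0.27 for LPS with PD against LPS and 0.75 for LPS with PD against control, beside -0.08, 0.07 and -0.02 over all tested genes. The last 2 comparisons each share libraries with the first and are not independent of it. In bulk RNA, a smaller number of expressing cells and less RNA per cell cannot be told apart.

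**Figure D2:**
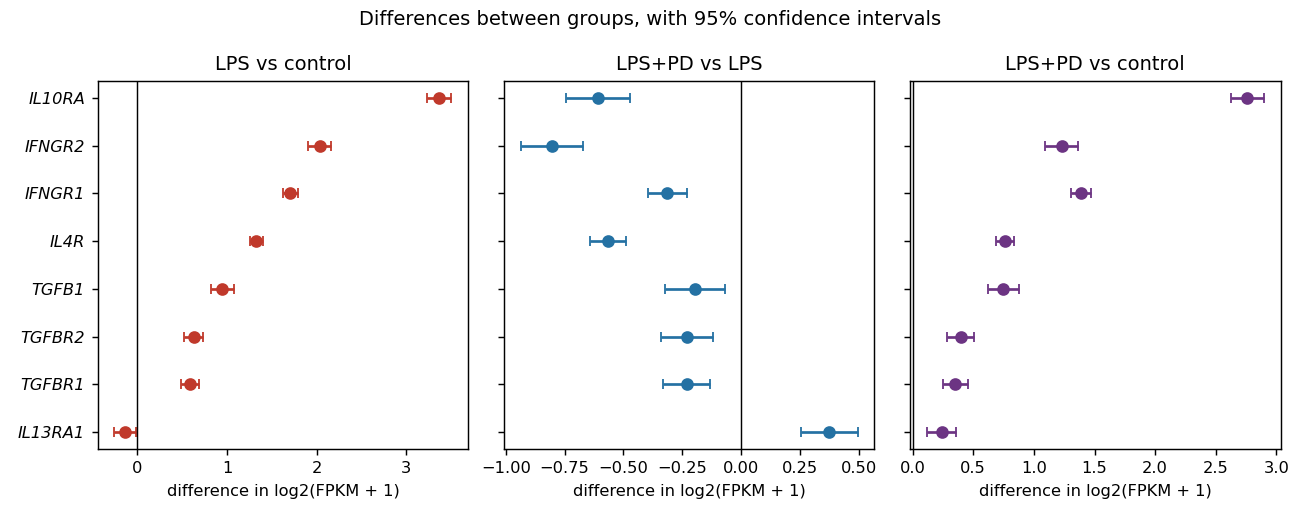
Difference between groups in log2(FPKM + 1) (horizontal axes) for the 8 tested genes in the 3 comparisons; points are limma estimates and bars 95% confidence intervals, and the line marks no difference. IL10RA has the largest difference with LPS (3.37), IFNGR2 the largest fall with PD (-0.80), and IL13RA1 alone is above 0 for LPS+PD vs LPS (0.37).

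IL10RA, the chain that binds IL-10 (ENSG00000110324, GRCh38 chromosome 11, 117986348 to 118003037, plus strand), was the gene with the largest change. Its level was 2.33, 2.69 and 2.19 FPKM in the control libraries, 31.8, 34.7 and 35.7 with LPS and 21.7, 22.5 and 21.7 with LPS and PD. The 3 groups did not overlap, and every library with PD lay below every LPS library and far above control. The means were 2.40 ± 0.260, 34.1 ± 2.03 and 22.0 ± 0.458 FPKM (SD, n = 3), so that LPS raised the level 14.2-fold, and with PD added it decreased by 35.4% from the level with LPS alone. On the log2(FPKM + 1) scale the rise with LPS was 3.37 (SE 0.0603, adjusted p = 9.55e-11) and the difference with PD was -0.61 (adjusted p = 6.11e-05). Only 0.774% of the tested genes had a larger log2 difference for LPS against control. These values rest on 285 to 341 fragments per control library and 3097 to 4693 in the others.

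IL10RB, the accessory chain that IL-10 shares with related cytokines (ENSG00000243646, chromosome 21, 33266358 to 33310187, plus strand), was low throughout. It stood at 0.524, 0.548 and 0.533 FPKM in control, 0.846, 0.916 and 0.854 with LPS and 0.529, 0.609 and 0.568 with LPS and PD. The LPS libraries were apart from both other groups, which overlapped each other. The counts behind these values were 39 to 42 fragments in control, 63 to 68 with LPS and 43 to 47 with LPS and PD. In a limma fit with no filter on low values IL10RB differed by 0.29 for LPS against control (adjusted p = 0.0131) and by -0.26 for LPS with PD against LPS (adjusted p = 0.0464), and LPS with PD against control was not called (0.03, adjusted p = 0.823). In voom on the recovered fragments, also with no filter, the differences were 0.70, -0.61 and 0.08 (adjusted p = 0.00799, 0.0299 and 0.832). With so few fragments, a small difference between control and LPS with PD was not detectable at this depth. Its level is uncertain, because 1732 of its 4548 exon bases (38.1%) also belong to the readthrough gene AP000295.1, which was listed at 0 in all 9 libraries.

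The ratio of IL10RA to IL10RB within a library was 4.44, 4.91 and 4.10 in control, 37.6, 37.9 and 41.8 with LPS and 41.0, 37.0 and 38.3 with LPS and PD. Control did not overlap either treated group, and the treated groups overlapped each other. The size of the ratio is uncertain, because IL10RB rests on few fragments and shares exon bases with AP000295.1. In a two-sided exact permutation test LPS against control gave p = 0.1, the smallest that 3 against 3 libraries allow. LPS with PD differed from LPS by -0.011 in the log2 ratio (exact p = 0.8) and by -0.35 with a pseudocount of 1 added to both chains, and so few libraries cannot show that the ratios are alike. Adjusted over all 15 ratio tests made, the smallest p was 0.136.

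IL4R, the signalling chain for IL-4 and IL-13 (ENSG00000077238, chromosome 16, 27313668 to 27364778, plus strand), rose with LPS and was part of the way back with PD. It was at 7.97, 7.96 and 8.01 FPKM in control, 21.0, 21.4 and 22.2 with LPS and 13.8, 14.6 and 14.3 with LPS and PD. The groups did not overlap. LPS raised the mean 2.70-fold, from 7.98 ± 0.0246 to 21.5 ± 0.623 FPKM (SD, n = 3), a log2 difference of 1.33 (adjusted p = 9.85e-10), and with PD the mean was 14.2 ± 0.386, a log2 difference from LPS of -0.57 (adjusted p = 2.86e-06). Of its 5894 exon bases, 339 are shared with the antisense gene AC106739.1, which reached at most 0.165 FPKM.

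IL13RA1, which binds IL-13 and joins IL4R (ENSG00000131724, chromosome X, 118727572 to 118794539, plus strand), did not follow its partner. Its level was 15.8, 16.2 and 16.1 FPKM in control, 15.9, 14.1 and 13.6 with LPS and 19.5, 18.4 and 19.5 with LPS and PD. The first LPS library lay within the control range and the other two lay below it, while all 3 libraries with PD were above the rest. The call for LPS against control, -0.14 with an adjusted p of 0.0470, was lost when LPS replicate 5 or 6 (adjusted p = 0.129 and 0.162) or any control or LPS+PD library was left out, with only the 6 libraries compared (0.0741), with no filter (0.0923) and without the intensity trend (0.0670). Under median-of-ratios scaling the difference was -0.01 (adjusted p = 0.862). The call was kept without LPS replicate 4 (-0.20, adjusted p = 0.00218), under quantile normalization (-0.16, adjusted p = 0.0230) and in voom on recovered fragments (-0.14, adjusted p = 0.0280). The rise with PD was 0.37 over LPS (adjusted p = 0.000568) and 0.24 over control (adjusted p = 0.00420).

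The ratio of IL4R to IL13RA1 thus moved in both directions. It was 0.504, 0.490 and 0.497 in control, 1.32, 1.51 and 1.64 with LPS and 0.709, 0.790 and 0.734 with LPS and PD. None of the 3 groups overlapped, each pair at the smallest possible exact p of 0.1. IL2RG, the other chain that joins IL4R, was at 2 to 5 fragments per control library, 67 to 87 with LPS and 63 to 78 with LPS and PD, or at most 0.116, 1.78 and 1.58 FPKM. The ratio of IL4R to IL2RG was 13.0 ± 1.29 with LPS and 9.71 ± 1.30 with PD added (SD, n = 3; exact permutation p = 0.1). Against control the log2 ratio differed by -3.16 with LPS and -3.59 with LPS and PD, but these values rest on the few IL2RG fragments in control, and with a pseudocount of 1 they were 0.019 and -0.44.

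**Figure D3:**
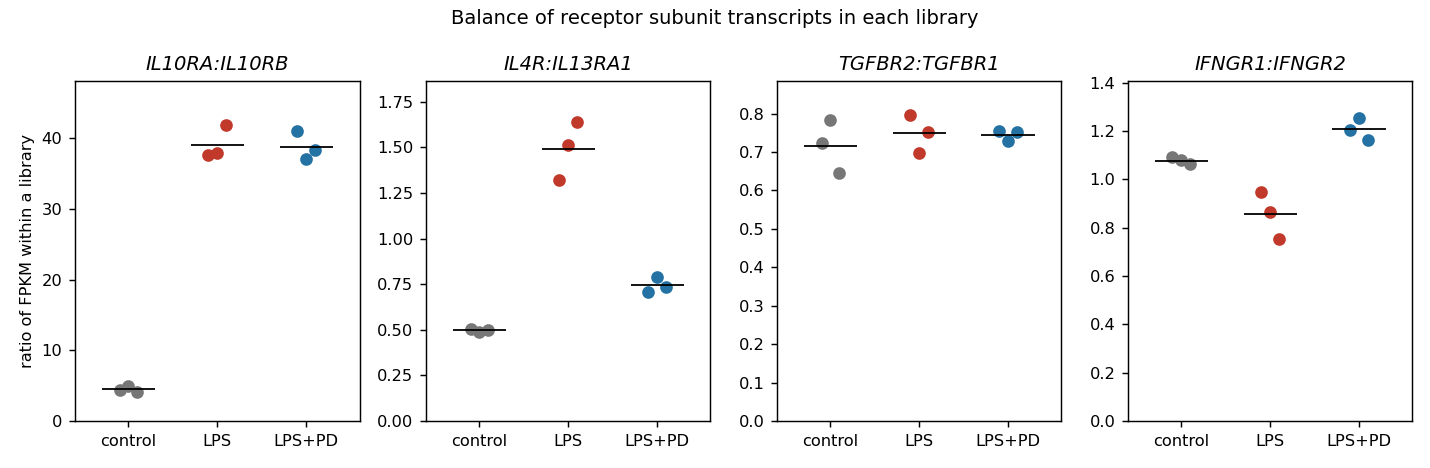
Ratio of FPKM of the subunits of 4 receptors within each library (vertical axes, from 0); points are libraries and lines the means of 3. IL10RA:IL10RB is near 39 in both treated groups against 4.48 in control, IL4R:IL13RA1 separates all 3 groups, TGFBR2:TGFBR1 overlaps in all, and IFNGR1:IFNGR2 is lowest with LPS. The size of IL10RA:IL10RB is uncertain, because the level of IL10RB is low and uncertain.

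TGFB1, the ligand TGF-beta 1 (ENSG00000105329, chromosome 19, 41301587 to 41353911, minus strand), was the most abundant of these genes in control. It was at 28.9, 29.9 and 26.7 FPKM in control, 55.2, 54.8 and 57.1 with LPS and 46.6, 46.2 and 52.8 with LPS and PD. The groups did not overlap, but replicate 9 lay nearer to the LPS libraries than the other two libraries with PD did. LPS raised it 1.95-fold (log2 difference 0.94, adjusted p = 3.89e-07). The fall with PD, -0.20 with an adjusted p of 0.0233, was not called without LPS replicate 6 (0.0753), LPS+PD replicate 7 (0.0777) or LPS+PD replicate 8 (0.0824), nor with no filter (0.0654) or quantile normalization (0.0546). Of its 3238 exon bases, 215 are shared with HNRNPUL1 on the opposite strand, which stood at 66.6 to 80.7 FPKM, and use of strand in the counting is not given in the sources used here.

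TGFBR1 and TGFBR2, the kinases of the TGF-beta receptor, moved together. TGFBR1 (ENSG00000106799, chromosome 9, 99104038 to 99154192, plus strand) was at 9.40, 9.05 and 9.85 FPKM in control, 14.6, 15.4 and 14.0 with LPS and 12.0, 12.7 and 12.3 with LPS and PD. TGFBR2 (ENSG00000163513, chromosome 3, 30606502 to 30694142, plus strand) was at 6.81, 7.08 and 6.35 FPKM in control, 11.6, 10.7 and 10.5 with LPS and 9.05, 9.26 and 9.26 with LPS and PD. For both genes the groups did not overlap. LPS raised TGFBR1 by 0.58 and TGFBR2 by 0.63 on the log2 scale (adjusted p = 2.29e-06 and 2.46e-06), and with PD both were lower than with LPS alone, each by a log2 difference of -0.23 (adjusted p = 0.00336 and 0.00525). Their ratio, TGFBR2 to TGFBR1, was 0.717 ± 0.0693 in control, 0.749 ± 0.0498 with LPS and 0.745 ± 0.0141 with LPS and PD (SD, n = 3). It overlapped between all groups, with exact permutation p-values of 0.6 to 0.9.

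IFNGR1, the chain that binds IFN-gamma (ENSG00000027697, chromosome 6, 137197484 to 137219449, minus strand), was at 16.3, 16.3 and 15.1 FPKM in control, 55.1, 54.9 and 52.6 with LPS and 42.7, 44.5 and 43.0 with LPS and PD. IFNGR2, its signalling partner (ENSG00000159128, chromosome 21, 33402896 to 33479348, plus strand), was at 15.0, 15.1 and 14.2 FPKM in control, 58.1, 63.4 and 69.7 with LPS and 35.4, 35.5 and 37.0 with LPS and PD. Both rose in every LPS library and stood between the other groups with PD, with no overlap. LPS raised IFNGR1 3.40-fold and IFNGR2 4.31-fold, log2 differences of 1.70 and 2.03 (adjusted p = 3.12e-10 and 2.14e-09). The difference with PD was -0.31 for IFNGR1 (95% interval -0.40 to -0.23, adjusted p = 0.000175) and -0.80 for IFNGR2 (95% interval -0.94 to -0.67, adjusted p = 9.55e-06). The ratio of IFNGR1 to IFNGR2 was 1.09, 1.08 and 1.06 in control, 0.948, 0.866 and 0.754 with LPS and 1.20, 1.25 and 1.16 with LPS and PD. The groups did not overlap, so IFNGR2 exceeded IFNGR1 in the LPS libraries only, and each comparison had the smallest possible exact p of 0.1. Of the 2960 exon bases of IFNGR2, 380 are shared with TMEM50B on the opposite strand, which stood at 7.31 to 10.1 FPKM.

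Among the 7 tested genes that rose with LPS, the libraries with PD stood nearer to control for some than for others on the FPKM scale. Setting the control mean to 0% and the LPS mean to 100%, the libraries with PD stood at 43.3% for IFNGR2 (42.2 to 45.4 over the 3 libraries), 46.0% for IL4R (42.9 to 48.4) and 55.5% for TGFBR1 (48.7 to 62.4). They stood at 58.1% for TGFBR2 (54.8 to 59.7), 61.9% for IL10RA (61.0 to 63.5), 71.8% for IFNGR1 (70.0 to 74.6) and 73.7% for TGFB1 (65.1 to 89.5). IFNGR2 and IL4R overlapped each other in this order and lay below the other five, while TGFBR1 overlapped TGFBR2 and IL10RA, and TGFB1 overlapped IFNGR1. IL10RB, which was too low to be tested and rests on few fragments, stood at 9.8% (-1.9 to 21.8) and is left out of the plot. No test was made of this order, and the control and LPS means in it are shared by all 3 libraries. The order also depends on the scale. On the log2(FPKM + 1) scale the differences from control, with LPS and then with LPS and PD, were 3.37 and 2.76 for IL10RA. They were 0.94 and 0.75 for TGFB1, 2.03 and 1.23 for IFNGR2, and 0.58 and 0.35 for TGFBR1. There IL10RA kept a larger share of its rise than TGFB1, and IFNGR2 was close to TGFBR1.

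**Figure D4:**
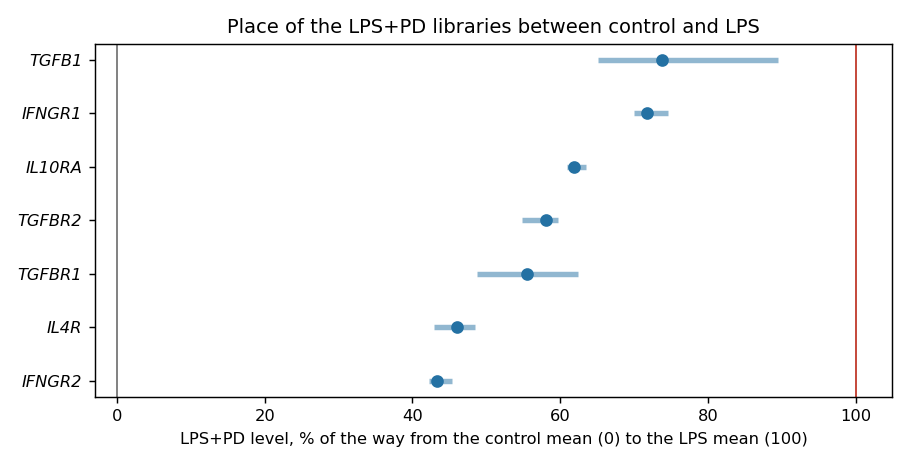
Level in the LPS+PD libraries as a percentage of the way from the control mean (0) to the LPS mean (100), for the 7 tested genes that rose with LPS; points are means and bars run from the lowest to the highest of 3 libraries. Of these, IFNGR2 (43.3%) and IL4R (46.0%) are nearest to control and TGFB1 (73.7%) nearest to LPS. IL10RB, not tested, is not shown.

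The order of the genes by level changed with treatment. In control TGFB1 was highest, followed by IL13RA1, IFNGR1 and IFNGR2 at 16.1, 15.9 and 14.8 FPKM, of which neighbours overlapped. TGFBR1, IL4R, TGFBR2, IL10RA and IL10RB followed with no overlap. With LPS the order was IFNGR2 at 63.7, TGFB1 at 55.7 and IFNGR1 at 54.2 FPKM, the last pair overlapping, then IL10RA, IL4R, TGFBR1 and IL13RA1, of which TGFBR1 and IL13RA1 overlapped, then TGFBR2 and IL10RB. With LPS and PD no neighbours overlapped, and TGFB1 (48.6), IFNGR1 (43.4), IFNGR2 (36.0) and IL10RA (22.0) led. IL10RA exceeded the level of 27.2% of tested genes in control, 90.0% with LPS and 83.8% with LPS and PD.

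The genes whose profile was most like each of these were found from the root mean square difference between log2(FPKM + 1) profiles over 9 libraries, each centred on its control mean, among 12147 genes. Nearest to IL10RA was LPXN, a leukocyte adaptor protein, at 0.0712 with 4.52, 53.2 and 36.3 FPKM in control, LPS and LPS+PD. Only 1 gene lay within 0.1 of IL10RA, against 10 for IFNGR2, 11 for IFNGR1, 35 for IL4R, 42 for TGFB1, 111 for IL13RA1, 164 for TGFBR2 and 223 for TGFBR1. The same absolute distance was used for all, so a gene with a larger change tends to have fewer genes within it. A low count is therefore no measure of how unusual the shape of a profile is. IFNGR2 was nearest to NINJ1, which acts in plasma membrane rupture, at 0.0609, and then to PPP1R15A, a stress-induced phosphatase subunit, at 0.0759. IL4R was nearest to UNC119 at 0.0489, IFNGR1 to PNKD at 0.0321, TGFBR1 to TMEM33 at 0.0295, TGFBR2 to RAP2B at 0.0435 and IL13RA1 to CBX2 at 0.0434. TGFB1 was nearest to HCCS at 0.0491 and then to SPI1, the myeloid transcription factor PU.1, at 0.0591.

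The pathways around these receptors were described with gene lists chosen by role, which include the receptor genes themselves. The lists were chosen with earlier results of these data known, so their counts are descriptive and not a test. Every count below stands against the shares of all tested genes, which were 26.4% higher and 39.7% lower for LPS against control and 23.8% higher and 13.0% lower for LPS with PD against LPS. Of 16 tested genes of IL-10 signalling, 14 were higher and 1 lower with LPS (26.4% and 39.7% of all tested genes), and 13 were lower and 0 higher with PD added (13.0% and 23.8%), with a further 3 not called. The list's median log2 difference was 1.18 for LPS against control and -0.65 for LPS with PD against LPS, beside -0.08 and 0.07 over all tested genes. SOCS3, a STAT3-induced inhibitor of cytokine signalling, rose from 1.23 to 42.3 FPKM with LPS and was at 5.15 with PD (log2 difference from LPS -2.82, adjusted p = 5.06e-07). BCL3, an NF-kB cofactor that IL-10 induces, rose from 1.19 to 58.9 and was at 27.1 with PD (adjusted p = 4.70e-05). STAT3 itself rose from 14.4 to 27.6 FPKM and fell to 19.4 with PD (adjusted p = 7.83e-06). JAK1, the kinase bound to IL10RA, was at 15.8, 14.3 and 14.3 FPKM and was called lower with LPS (-0.13, adjusted p = 0.0258). JAK1 was no longer called (-0.0088, adjusted p = 0.858) once libraries were scaled by the median of ratios, or without control replicate 1 (0.0910), control replicate 3 (0.0885), LPS replicate 5 (0.0751) or LPS replicate 6 (0.0615). Many of these genes also answer to other cytokines and to LPS, and IL10 itself was not analysed here.

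Of 14 other genes of the IL-10 family and its receptors, 8 had a row and 0 passed the filter, and the others were not analysed here. The 8 stayed under 1 FPKM in every library, and the highest value was 0.893 FPKM, for IL20RB, a receptor chain for IL-19, IL-20 and IL-24, which was in the range of IL10RB at means of 0.638, 0.853 and 0.770 FPKM. IFNL1, an interferon that uses IL10RB, was at 0 fragments in control, 4 to 11 with LPS and 1 to 3 with LPS and PD. IL10RB and IFNGR2 lie in a cluster of class II cytokine receptor genes on chromosome 21 with IFNAR1 and IFNAR2, the chains of the type I interferon receptor. Of the 3 tested genes there, IFNGR2 and IFNAR1 rose with LPS and fell with PD. IFNAR1 was at 10.1, 16.1 and 13.1 FPKM (log2 differences 0.61 and -0.27, adjusted p = 1.24e-06 and 0.00109), and IFNAR2 was not called (1.40, 1.68 and 1.39 FPKM). IFNAR2 was called higher with LPS under quantile normalization (0.27, adjusted p = 0.0134) and median-of-ratios scaling (0.24, adjusted p = 0.0247), and lower with PD under the former (-0.23, adjusted p = 0.0485).

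For the IL-4 and IL-13 axis, 6 of 11 tested genes were higher and 4 lower with LPS (26.4% and 39.7% of all tested genes), and 2 were higher and 5 lower with PD added (23.8% and 13.0%). The 4 lower with LPS and the 2 higher with PD lie near the shares over all genes. STAT6, the main transcription factor of the route, differed by 0.22 with LPS and by -0.17 with PD (adjusted p = 0.000162 and 0.00217), with means of 37.6, 44.0 and 38.9 FPKM. IRS2, an adaptor of IL4R, was at 9.75, 6.46 and 7.60 FPKM, lower with LPS (adjusted p = 3.53e-05) and higher with PD (adjusted p = 0.0232). The second call was lost with no filter (0.0571), under quantile normalization (0.0556) and median-of-ratios scaling (0.146), and without LPS replicate 4 (0.0616), LPS replicate 5 (0.0828), LPS+PD replicate 8 (0.0731) or LPS+PD replicate 9 (0.0769). Of 17 genes known to respond to IL-4 or IL-13 in human macrophages only 6 were tested, with 2 called higher and 3 lower for LPS against control (26.4% and 39.7% of all tested genes) and 2 higher and 0 lower for LPS with PD against LPS (23.8% and 13.0%). With so few tested these counts are near the shares over all genes. The last count was 1 without LPS replicate 5, without LPS+PD replicate 8 and under median-of-ratios scaling. CD209, a lectin, rose from 9.62 to 25.1 FPKM with LPS and was at 27.3 with PD, and F13A1, a coagulation factor subunit, fell from 10.1 to 0.175 and was at 0.975.

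For TGF-beta ligands, storage and activation, 7 of 10 tested genes were higher and 2 lower with LPS (26.4% and 39.7% of all tested genes), and 1 was higher and 6 lower with PD (23.8% and 13.0%). MMP14, a membrane protease that can release TGF-beta, rose from 35.7 to 159 FPKM and was at 76.1 with PD (log2 differences 2.12 and -1.05). NRROS, which tethers latent TGF-beta 1 on myeloid cells, was at 34.0, 33.1 and 40.4 FPKM and was higher with PD (0.28, adjusted p = 0.000874). Among 17 tested genes of the receptors and SMAD signalling, 6 were higher and 5 lower with LPS (26.4% and 39.7% of all tested genes), which is near the shares over all genes, and 3 were higher and 7 lower with PD (23.8% and 13.0%). The inhibitory SMAD7 rose from 5.42 to 37.6 FPKM with LPS and differed by -0.31 with PD (adjusted p = 0.0104), whereas SMAD4, the common SMAD, fell from 4.88 to 3.39 and was at 3.71. SMAD2 and SMAD3, the SMADs that TGFBR1 activates, were not called in any comparison, but in voom on recovered fragments SMAD2 was called lower with LPS (-0.13, adjusted p = 0.0207) and with LPS and PD (-0.11, adjusted p = 0.0484), each against control. Of 10 tested genes known to respond to TGF-beta, 8 were higher and 2 lower with LPS (26.4% and 39.7% of all tested genes) and 8 lower and 0 higher with PD (13.0% and 23.8%). SKIL, a SMAD corepressor, rose from 1.67 to 9.82 FPKM and was at 4.00 with PD, and ID1 fell from 2.61 to 1.15 and was at 1.41.

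For the IFN-gamma axis, 8 of 12 tested genes were higher and 2 lower with LPS (26.4% and 39.7% of all tested genes), and 1 was higher and 9 lower with PD (23.8% and 13.0%). IRF1, a transcription factor that IFN-gamma induces, was at 3.64, 7.01 and 4.78 FPKM in control, LPS and LPS+PD (log2 differences 0.79 and -0.47, adjusted p = 1.11e-06 and 0.000167), while IRF8, a myeloid transcription factor, fell with LPS and rose with PD, with 152, 66.4 and 92.8 FPKM. IFNG, the ligand, was at 0 or 1 fragment in every library. SOCS1, which inhibits JAK kinases, was at 0.903, 3.78 and 0.812 FPKM, so that its libraries with PD were near control.

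**Figure D5:**
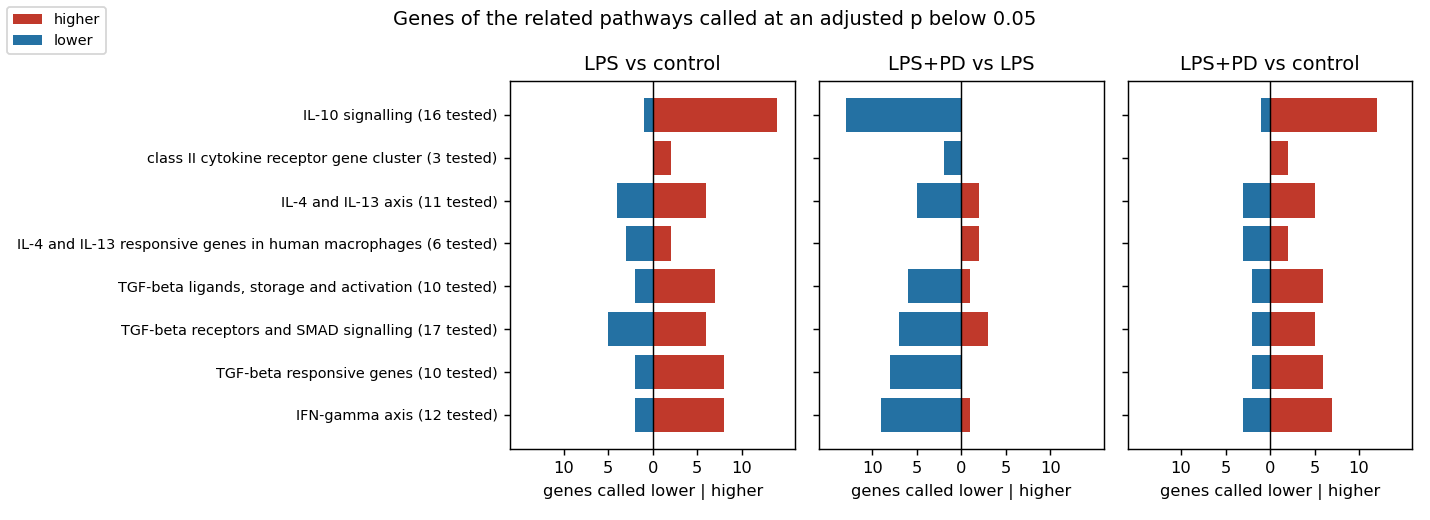
Number of genes of each related list called lower (left of 0) and higher (right of 0) at an adjusted p below 0.05 in the 3 comparisons, with the number tested beside each list's name. In IL-10 signalling 14 of 16 are higher with LPS and 13 are lower with PD added; the receptor and SMAD list is split.

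Markers of cell state moved with the same groups. The summed FPKM of 12 macrophage markers was 80.0 to 82.3 in control, 196 to 207 with LPS and 120 to 125 with LPS and PD, with FCGR3A at 0 in control and LPS+PD libraries and MRC1 at 0 in LPS libraries. Only 4 of the 12 reached 1 FPKM in any control library, and 5 did so with LPS and with LPS and PD. CD68 stayed low, with means of 0.128, 0.237 and 0.216 FPKM in control, LPS and LPS+PD. Of the 5 tested, 5 were higher with LPS (26.4% of all tested genes), and 1 was higher and 4 lower with PD (23.8% and 13.0%). The markers did not move as one. CD14 was at 0.466, 35.1 and 10.1 FPKM in control, LPS and LPS+PD, and CSF1R at 30.4, 78.6 and 41.3. ITGAM was at 5.00, 11.8 and 19.2 FPKM and FCGR1A at 34.4, 49.7 and 30.8. The scavenger receptors MSR1 (0.156, 0.0282 and 0.0219) and MARCO (0.448, 0.244 and 0.0997) had their highest means in control. Both were too low to be tested, and their LPS and LPS+PD libraries overlapped. The sum of 9 myeloid progenitor markers was 5655 to 6196, 1385 to 1500 and 2148 to 2170 FPKM, with CD34 at 0 in control. Of 8 tested progenitor markers, 8 were lower with LPS (39.7% of all tested genes). With PD added 7 were higher and 0 lower (23.8% and 13.0%). The 8 epithelial markers summed to at most 0.448 FPKM in any library, with NKX2-1 and SFTPC at 0 in control. The T and NK cell markers summed to 18.7 to 24.3 FPKM in control, 34.8 to 36.7 with LPS and 23.7 to 25.7 with LPS and PD, with CD3G at 0 in all groups and TRAC at 0.166, 3.10 and 1.25. The B cell markers summed to 3.89 to 4.09, 5.66 to 6.56 and 4.16 to 4.96 FPKM, with PAX5 at 0.919, 4.35 and 2.31. The fibroblast and endothelial markers summed to 34.5 to 35.6, 53.2 to 55.4 and 47.1 to 47.8 FPKM, of which PECAM1, which myeloid cells also express, was the one tested. The macrophage, T and NK, B cell, and fibroblast and endothelial sums were highest with LPS and the progenitor sum was lowest there, and the part of these shifts in the receptor results was not tested.

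Scaling between libraries bears on the direction of small differences. Under median-of-ratios scaling the median of all tested genes for LPS against control moved from -0.08 to 0.02, and the share of calls that were higher moved from 40.0% to 53.9%, and from 64.7% to 42.8% for LPS with PD against LPS. The calls of IL10RA, IL4R, TGFBR1, TGFBR2, IFNGR1 and IFNGR2 kept their direction and stayed called in all 3 comparisons under this scaling and under quantile normalization.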

How the data were processed

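The 9 libraries of poly(A)-enriched RNA were grouped by the treatment in their titles. The authors deposited FPKM values for 34643 genes. Per the submitters' processing notes, HISAT2, StringTie, FastQC and bcl2fastq were used, on GRCh38. Coordinates and exon lengths are from GENCODE release 29. With these lengths, 97.6 to 97.7% of the deposited FPKM values came out as whole fragments within 0.05, which gave the fragments quoted.

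Groups were compared with limma 3.58.1 (R 4.3.3) on log2(FPKM + 1), in one model of 3 group means with an intensity trend, over 13692 genes with at least 1 FPKM in at least 3 libraries. Subunit ratios were tested with SciPy 1.17.1. The fit was tested on simulated data with a spread set by hand and far fewer genes changed than were called here. That test therefore does not show how the fit performs on these data. Some changed genes with few fragments were missed in it, and IL10RB lies in that range. Fold changes on this scale understate changes of low genes; ratios of mean FPKM are given as fold.

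The members and lists were chosen with earlier results of these data known. Named genes are all members, list genes chosen by role, and the nearest profiles; SOCS3, CD209, F13A1, IRF8, IFNL1, IFNG and the cell markers named were chosen after their values were seen, and were not refitted under the alternatives. Alternatives covered pseudocount, filter, scaling, spread, threshold, voom on recovered fragments and each library left out. A gene of these lists is counted but not reported here by name.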

Additional observations from a re-analysis of the deposited data

How the results depend on the processing

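Under the alternatives, no member changed direction. Calls were lost for IL13RA1 and TGFB1 as given above and under the stricter thresholds. With a fold of 1.5 required, TGFBR1 was also no longer called in any comparison. TGFBR2 was then not called for LPS with PD against LPS or against control, and IL4R and IFNGR1 were not called for LPS with PD against LPS. The genes called for LPS against control numbered 5929 with a filter at 5 FPKM, where fewer genes were tested, and 3491 with a fold of 1.5 required. For LPS with PD against LPS they numbered 3254 at an adjusted p of 0.01 and 821 with the fold, and for LPS with PD against control 2093 with the fold. With the fold required, 2 members were called for LPS with PD against LPS and 5 for LPS with PD against control. No paired analysis was possible because the groups share no replicate numbers. With a pseudocount of 1 the log2 ratio of IL10RA to IL10RB moved from -0.011 to -0.35 (LPS with PD against LPS) and from 3.12 to 2.73 (LPS with PD against control), and that of IL4R to IL13RA1 from 1.58 to 1.46 (LPS against control) and from 0.58 to 0.52 (LPS with PD against control). For IL4R to IL2RG against control it moved from -3.16 and -3.59 to -1.93 and -2.37 with a pseudocount of 0.1, and to 0.019 (reversed) and -0.44 with 1.

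Other reversed signs, those of list genes not called in that comparison, were as follows. For LPS against control, NRROS was 0.091 and SMAD3 0.054 under median-of-ratios scaling, SMAD2 was 0.00057 under it and 0.013 under quantile normalization, and NRROS ranged from -0.071 to 0.0016 with each library left out, and was called under quantile normalization (-0.13, adjusted p = 0.0232). For LPS with PD against LPS, these scalings gave -0.073 and -0.017 for JAK1 and -0.044 and -0.039 for SMAD2, and SMAD3 was -0.027 under the first. With each library left out, JAK1 ranged from -0.014 to 0.020 and SMAD2 from -0.014 to 0.033. For LPS with PD against control, the scalings gave 0.020 and 0.039 for IFNAR2, STAT6 was -0.041 under quantile normalization and called at 0.096 (adjusted p = 0.0380) under median-of-ratios scaling, and SMAD3 was 0.027 and TGFBI 0.035 under median-of-ratios scaling. With each library left out, IFNAR2 ranged from -0.068 to 0.026, SMAD3 from -0.047 to 0.027 and TGFBI from -0.032 to 0.013. The cause was not tested.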
